A study of Mus musculus with 12 samples.

Results

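The 38 genes described here encode chaperones, their helpers and the regulators that set their levels, in the endoplasmic reticulum (ER), the cytosol and mitochondria. They were chosen by name from a list of ER and cytosolic chaperone genes, and all 38 were found among the 24674 genes of the table. Of these, 22 act in or for the ER and 16 in the cytosol, in mitochondria or as the heat shock regulator. RNA was sequenced from organoids, small 3-dimensional epithelial cultures, that were grown from basal cells of the prostate of wild-type C57BL/6 mice. The cultures received vehicle, UK5099, Butyrate, or UK5099 + Butyrate (the combination), with 3 samples in each of the 4 groups. UK5099 is an inhibitor of the carrier through which pyruvate enters mitochondria, and butyrate is an inhibitor of histone deacetylases. The labels give no dose or duration, and they do not say whether the 3 samples of a group came from separate cultures, so the p-values measure only the spread between these samples.

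Proteins that enter the secretory pathway fold inside the ER, where the Hsp70 protein BiP, the lectins calnexin and calreticulin and the disulfide isomerases act on them. Proteins that fail to fold are passed back to the cytosol and degraded, a route called ER-associated degradation. When unfolded proteins build up, the sensors IRE1alpha, ATF6 and PERK start the unfolded protein response, which raises transcription of the ER folding genes. The cytosol has its own system of Hsp70, Hsp90, J proteins and small heat shock proteins, whose inducible members are raised by the transcription factor HSF1. Cells that secrete much protein, as luminal cells of the prostate do, carry a large ER folding machinery.

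Promoter sequences are shown because most ER genes, as described below, were lower in the treated groups on the deposited scale. RefSeq windows of the GRCm38.p6 genome, from 250 bases before to 50 bases after each transcription start, were at hand for 30 of the 38 genes and were not found under the names Hyou1, Manf, Atf6, Hspa8, Hsp90aa1, Hsp90ab1, Cryab and Hsf1. The ER stress response element (ERSE), which ATF6 and NF-Y are known to bind, was searched on both strands as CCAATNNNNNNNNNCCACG. It lay in the windows of 0.137% of 27025 genes and in 8 of the 19 ER genes with a window, namely Hspa5, Hsp90b1, Calr, Canx, Pdia6, Dnajc3, Creld2 and Syvn1. A shorter form, ERSE-II, ATTGGNCCACG, lay in 0.0444% of genes and in Herpud1 and Dnajb11. Both forms contain the letters CCACG, which on their own lay in 35.5% of genes. The heat shock element GAANNTTCNNGAA, the site of HSF1, lay in 0.662% of genes and in Hspd1, Hspe1 and Hsph1. The windows of Hspa1a, Hspa1b, Hspb1, Dnajb1 and Bag3 held no exact match. Inexact matches were not searched, so this does not show that these genes lack the element. The lines below give the stretch around the element, 5′ to 3′ on the strand of the gene, with the element in capitals, for the main ER Hsp70, an isomerase, a lectin, the degradation ligase, the gene with the lowest coefficient of the set and the pair of mitochondrial chaperonin genes.
Hspa5, ERSE, chr2:34772010-34772058, plus strand: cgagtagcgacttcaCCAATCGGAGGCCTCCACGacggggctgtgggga
Pdia6, ERSE, chr12:17266476-17266524, plus strand: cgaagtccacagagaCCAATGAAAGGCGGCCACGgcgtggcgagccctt
Calr, ERSE in reverse orientation, chr8:84847060-84847108, minus strand: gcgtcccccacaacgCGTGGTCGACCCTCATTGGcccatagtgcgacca
Syvn1, ERSE, chr19:6046517-6046565, plus strand: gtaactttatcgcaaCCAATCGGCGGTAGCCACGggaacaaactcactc
Herpud1, ERSE-II, chr8:94386362-94386402, plus strand: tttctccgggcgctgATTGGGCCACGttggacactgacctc
Hspe1, heat shock element, chr1:55088049-55088091, plus strand: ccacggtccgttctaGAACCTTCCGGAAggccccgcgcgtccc
The Hspe1 stretch is also the Hspd1 stretch read from the other strand, since these genes lie head to head. A match of letters is a description of the window and does not show that a factor was bound in these organoids. Known ER chaperone genes were chosen by name, so their share with an ER stress element is not a finding of these data. Any part of the elements in the drug response was not tested.

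Values are TPM, abundances scaled to the same total in each sample, and the authors' table divides by the whole span of a gene, introns included. Changes are limma coefficients on log2(TPM + 1) with their standard errors (SE), and genes counted as higher or lower have a limma adjusted p under 0.01 over all 24674 genes. A coefficient past both thresholds also exceeds 1 in size. How many genes counted as higher or lower turned on the scaling of the samples. On the deposited values the median coefficient over the 13345 genes that averaged 1 TPM or more was -0.12 under UK5099, -0.30 under Butyrate and -0.41 in the combination, and with a median of ratios scaling, which makes the typical gene equal between samples, it was 0, -0.03 and -0.03. Values below are as deposited unless another scaling is named. As the samples were bulk cultures, fewer cells of a type and less RNA per cell cannot be told apart.

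Depth lay between 33254916 and 43502919 fragments per sample. UK5099 replicate 1 and combination replicate 1 stood apart from their replicates, with a chi-square per gene of 6.29 to 6.64 against 1.93 to 2.65 for the other replicate pairs, yet the counts of members called against vehicle and between the drugs moved by 2 or fewer when both were left out. Among the 38 genes the median coefficient of variation within a group was 1.93%. Marker lists showed the epithelial state of the cultures. The summed TPM of 6 luminal markers (among them Krt8 and Krt18) was 5150 to 5350 in vehicle, 3050 to 3190 under UK5099, 2860 to 2900 under Butyrate and 1790 to 2000 in the combination. The sum of 6 basal markers was 6590 to 6720, 13700 to 14100, 7020 to 7260 and 10200 to 10600. The basal markers did not move together, since under Butyrate Krt5 rose from 1850 to 3150 TPM while Krt14, Krt15 and Itga6 were lower (coefficients -0.27, -0.32 and -0.19), and Krt15 was also lower in the combination (-0.65). Summed markers were at most 11.2 TPM for stroma, 0.0415 for endothelium and 0.645 for neuroendocrine cells, and the immune sum of 24 to 97.7 was carried by Cd68, while Ptprc, the pan-leukocyte marker, averaged at most 0.00163. The stromal sum hides opposite moves under Butyrate, where mean Vim fell from 7.98 to 0.364 TPM and mean Dcn rose from 0.762 to 9.51. No listed marker in the table was at 0 in all samples of a group. The part of these shifts in the chaperone results was not tested.

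Every ER gene of the set was lower under UK5099 on the deposited scale, 20 of 22 were lower under Butyrate and 21 in the combination, while Edem1 under UK5099 and 3 further ER genes (P4hb, Xbp1 and Ern1) in the other comparisons changed sign with the scaling. With UK5099 31 of 38 members were lower and 3 higher, where 24.7% and 8.24% of all genes were. With Butyrate 30 were lower and 4 higher, against 35.9% and 9.7% of all genes, and in the combination 32 were lower and 3 higher, against 40.8% and 10.1%. Since 37 of the 38 members averaged 1 TPM or more, the shares among the 13345 such genes are the closer ones, with 38.1%, 57.6% and 64.2% lower and 12.3%, 11.7% and 11.2% higher in the 3 comparisons. The 16 members outside the ER moved in both directions, as Hspa2 was at -1.08 and Hspa1a at 0.62 under UK5099. Their medians hide such changes. The ER side had the medians farther from 0. Its 22 genes had a median coefficient of -0.42 under UK5099, -0.63 under Butyrate and -0.86 in the combination, while the 16 other members had -0.23, -0.28 and -0.37. With median of ratios scaling the ER medians were -0.28, -0.31 and -0.45 and those of the 16 were -0.09, 0.01 and 0.03. On that scaling 28 members were lower and 4 higher under UK5099 (13.7% and 13.5% of all genes), 19 lower and 9 higher under Butyrate (20.3% and 18.5%), and 23 lower and 7 higher in the combination (22.5% and 21.7%), where the lower shares among genes of 1 TPM or more were 20.1%, 32.2% and 34.7%. Over 4 scalings, 20 of the 22 ER genes were lower on all 4 under UK5099, 15 under Butyrate and 19 in the combination. Agreement over the 4 scalings was not counted for all genes. These counts, and later ones of that kind, therefore have no background share beside them.

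**Figure D1:**
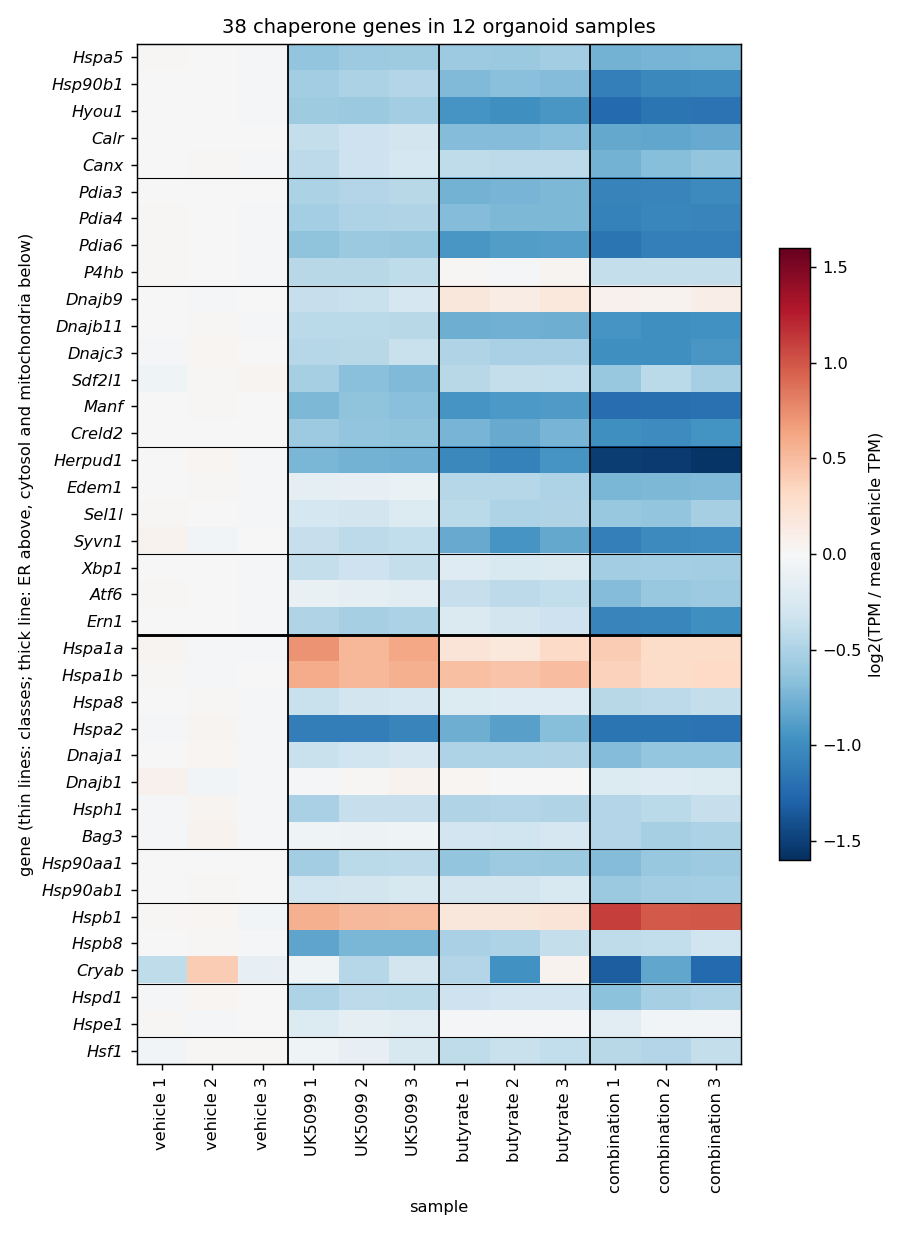
Each column is a sample, each row a gene, and the colour is log2 of its TPM over the vehicle mean, as deposited. The ER rows above the thick line are blue in nearly all treated samples, except P4hb under Butyrate and Dnajb9 under Butyrate and in the combination, while Hspa1a, Hspa1b and Hspb1 are red.

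The ER chaperones proper include Hspa5, which encodes BiP and is listed at chr2:34661982-34667560. Positions are given as the table lists them, and the submitters' notes name the build GRCm39. Its TPM was 987, 965 and 962 in vehicle, 628, 649 and 654 under UK5099, 648, 645 and 661 under Butyrate, and 575, 580 and 586 in the combination. No treated sample reached the vehicle range. As deposited the combination samples lay below those of each drug alone, but after median of ratios scaling the UK5099 coefficient was the lowest. The coefficients were -0.59 ± 0.019 under UK5099, -0.58 ± 0.019 under Butyrate and -0.74 ± 0.019 in the combination (limma adjusted p = 1.89e-08, 7.12e-09 and 7.67e-10), and with median of ratios scaling -0.44, -0.26 and -0.28. Hsp90b1, the Hsp90 of the ER, was 317.2 ± 3.55 TPM in vehicle, 222.9 ± 6.10 under UK5099, 196.6 ± 2.48 under Butyrate and 153.4 ± 4.65 in the combination (SD, n = 3). Hyou1, the nucleotide exchange factor that recharges BiP, fell to 67.4%, 51.8% and 43.5% of its vehicle mean of 97.01 TPM. The lectin chaperone Calr was 828, 827 and 828 TPM in vehicle and 468, 464 and 472 in the combination, with 634 to 676 under UK5099 and 512 to 522 under Butyrate between them. Canx, its membrane-bound relative, was at 78.9%, 75.1% and 62.1% of vehicle. The combination coefficients after median of ratios scaling were -0.58 for Hsp90b1, -0.72 for Hyou1, -0.36 for Calr and -0.22 for Canx, against -1.04, -1.18, -0.82 and -0.68 as deposited. Of these 5 genes, Canx under Butyrate was the case that did not pass after median of ratios scaling, with a coefficient of -0.10 (limma adjusted p = 0.0322).

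The disulfide isomerases, enzymes that form and shuffle disulfide bonds, fell together except for P4hb. Pdia3, which works with calnexin and calreticulin, had 130, 130 and 129 TPM in vehicle, 91.3, 94.0 and 95.7 under UK5099, 76.8, 77.6 and 78.7 under Butyrate and 62.0, 62.4 and 64.1 in the combination. The 4 groups did not overlap as deposited, and each step down was larger than the spread within a group. After median of ratios scaling the Pdia3 coefficients were -0.32, -0.42 and -0.58. Its difference of Butyrate from UK5099 lay between -0.27 and -0.03 over 4 scalings and did not pass the test on all of them. Pdia4 and Pdia6 had coefficients of -0.50 and -0.61 under UK5099, -0.70 and -0.89 under Butyrate and -1.04 and -1.10 in the combination, where median of ratios scaling gave -0.58 and -0.64. P4hb, the classical isomerase PDI (chr11:120451124-120464080), did otherwise. Its TPM was 380, 377 and 366 in vehicle, 276, 275 and 284 under UK5099, 381, 371 and 387 under Butyrate and 287.1, 287.4 and 288.0 in the combination. UK5099 samples were low with and without Butyrate, and the Butyrate samples overlapped vehicle. The Butyrate coefficient was 0.02, with a 95% interval of -0.03 to 0.07, and 0.33 after median of ratios scaling (limma adjusted p = 1.05e-07), while for the combination the sign depended on the scaling, -0.38 as deposited and 0.08 after it.

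**Figure D2:**
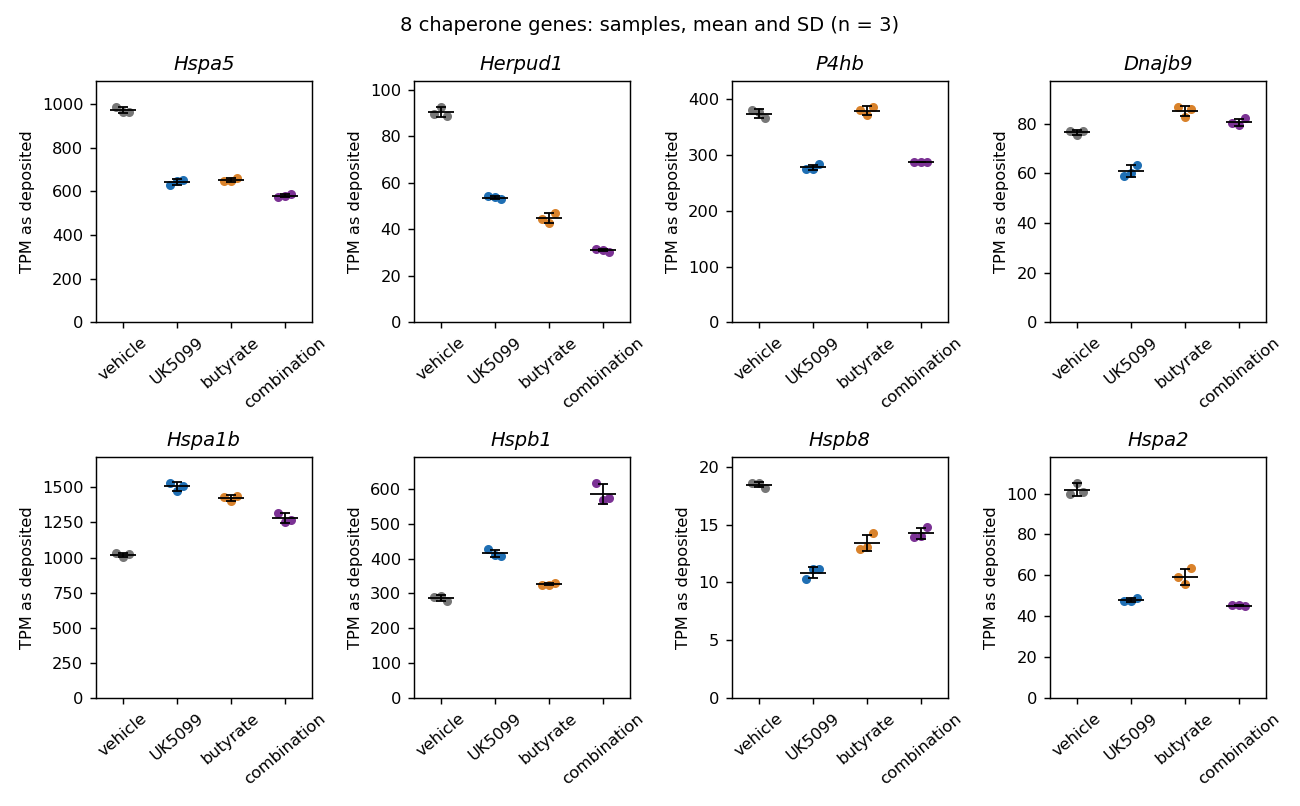
TPM as deposited for 8 genes, with each point a sample and bars the mean and SD of 3 samples per group, on axes that start at 0. Hspa5 and Herpud1 were lower in every treated group, P4hb was low where UK5099 was present, and Hspb1 was highest in the combination.

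The cofactors of BiP split in the same way. Dnajb11 (ERdj3), a J protein that hands unfolded chains to BiP, was 18.6, 18.9 and 18.2 TPM in vehicle, 13.7 to 13.8 under UK5099, 10.8 to 10.9 under Butyrate and 9.44 to 9.66 in the combination. Dnajc3 (p58IPK), another J protein, fell to 74.9%, 70.3% and 51.1% of vehicle. Manf and Creld2, small proteins that are induced by ER stress, fell to 62.6% and 65.2% under UK5099, 52.7% and 58.8% under Butyrate and 43.4% and 50.6% in the combination. The combination coefficients of Dnajb11, Dnajc3, Manf and Creld2 after median of ratios scaling were -0.46, -0.46, -0.67 and -0.49, against -0.89, -0.89, -1.10 and -0.93 as deposited. Sdf2l1, a partner of ERdj3, had coefficients of -0.62 ± 0.054, -0.39 ± 0.054 and -0.51 ± 0.054, of which the Butyrate and combination values were -0.09 and -0.05 after median of ratios scaling and no longer passed the test. Dnajb9 (ERdj4), a J protein that is also a repressor of IRE1alpha, was the ER gene that rose on the deposited scale. It was 76.8, 75.4 and 77.0 TPM in vehicle, 59.0, 59.95 and 63.5 under UK5099, 86.7, 82.8 and 85.9 under Butyrate and 80.2, 79.3 and 82.2 in the combination. The UK5099 samples lay below vehicle and all samples under Butyrate above it. Its coefficients were -0.33 ± 0.029 under UK5099 and 0.15 ± 0.029 under Butyrate (limma adjusted p = 1.34e-05 and 0.00124), and the combination value of 0.07 did not pass the test as deposited (limma adjusted p = 0.0503) but was 0.53 after median of ratios scaling.

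In ER-associated degradation, Herpud1 had the lowest coefficient among the 38 genes under Butyrate and in the combination. It encodes a membrane protein of the degradation complex and is listed at chr8:95113066-95122006. Herpud1 TPM was 89.8, 92.7 and 88.8 in vehicle, 54.3, 53.7 and 53.0 under UK5099, 44.4, 42.8 and 47.1 under Butyrate and 31.4, 31.3 and 30.4 in the combination. The 4 groups were separate. Its coefficients were -0.74 ± 0.033, -1.0 ± 0.033 and -1.51 ± 0.033 (limma adjusted p = 1.46e-07, 7.58e-09 and 3.45e-10), and the combination value after median of ratios scaling was -1.06. Syvn1, the ubiquitin ligase Hrd1, fell to 76.1%, 55.3% and 48.9% of a vehicle mean of 56.07 TPM, whereas Sel1l, the adaptor of that ligase, fell to 83.4%, 72.2% and 66.6%. Syvn1 had coefficients of -0.24, -0.53 and -0.55 after median of ratios scaling, and Sel1l -0.10, -0.14 and -0.11. Edem1, which picks out misfolded glycoproteins, was 19.1 to 19.6 TPM in vehicle and 17.6 to 17.97 under UK5099, a coefficient of -0.12 that became 0.02 after median of ratios scaling, while its Butyrate and combination values (-0.44 and -0.67) stayed negative (-0.14 and -0.24).

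The 3 regulators of the unfolded protein response in the set were also lower on the deposited scale. Xbp1, the transcription factor whose mRNA IRE1alpha splices, was 166 to 169 TPM in vehicle, 129 to 133 under UK5099, 143 to 146 under Butyrate and 115 in each combination sample. These groups did not overlap, but the Butyrate coefficient of -0.22 turned to 0.09 after median of ratios scaling. Ern1, which encodes IRE1alpha, fell to 70.5%, 82% and 49.1% of vehicle. Its coefficients of -0.40, -0.23 and -0.79 became -0.28, 0.02 and -0.43 after median of ratios scaling. Atf6 had -0.10, -0.25 and -0.38, which became 0, -0.05 and -0.10. With 4.779 TPM for Ern1 and 1.957 TPM for Atf6 in vehicle, the added 1 makes the coefficients of both understate the change. The spliced form of Xbp1 cannot be read from values per gene.

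The inducible cytosolic Hsp70 genes went the opposite way to the ER genes. Hspa1b (chr17:35175412-35178215) and Hspa1a (chr17:35188166-35191133) are neighbours on the minus strand. Hspa1b was 1033, 1006 and 1023 TPM in vehicle, 1534, 1474 and 1512 under UK5099, 1428, 1401 and 1441 under Butyrate and 1318, 1255 and 1269 in the combination. All treated samples exceeded all vehicle samples, and the combination samples lay below those of either drug on this scale. The coefficients were 0.56 ± 0.023, 0.48 ± 0.023 and 0.33 ± 0.023 (limma adjusted p = 9.19e-08, 7.79e-08 and 7.55e-07), and 0.71, 0.80 and 0.79 after median of ratios scaling, where UK5099 alone was the lowest of the 3 treated groups. Hspa1a, a near-identical copy, was 214 to 225 TPM in vehicle, 316 to 358 under UK5099, 245 to 270 under Butyrate and 267 to 290.5 in the combination, with coefficients of 0.62, 0.23 and 0.33, or 0.77, 0.54 and 0.79 after median of ratios scaling. Reads that fit both copies may have been divided between them, so the values of each copy are uncertain.

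The other Hsp70 genes did not follow. Hspa8, the constitutive Hsp70, was 434 to 446 TPM in vehicle and 325 to 340 in the combination, with coefficients of -0.31, -0.21 and -0.41, of which the last 2 turned positive (0.10 and 0.06) after median of ratios scaling. Hspa2, an Hsp70 best known from the testis, was 99.9, 105 and 101 TPM in vehicle, 47.3, 47.2 and 49.0 under UK5099, 59.0, 55.6 and 63.4 under Butyrate and 45.4, 45.4 and 44.9 in the combination. All treated groups lay far below vehicle. Its coefficient of -1.08 ± 0.042 under UK5099 was the single member value past both thresholds in that comparison (limma adjusted p = 7.26e-08), where 0.928% of all genes were higher and 0.912% lower by that rule, and it was -0.93 after median of ratios scaling.

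Among the cochaperones of Hsp70, the J protein Dnajb1 had coefficients near 0 with either drug alone (0.01, 95% interval -0.05 to 0.08 under UK5099, and 0.01, -0.06 to 0.07 under Butyrate) and -0.21 in the combination, all 3 of which were positive and past the test after median of ratios scaling (0.16, 0.32 and 0.25). Dnaja1, also a J protein, had -0.30, -0.48 and -0.63 as deposited and -0.16, -0.17 and -0.17 after it. Of the nucleotide exchange factors, Hsph1 fell to 74.9%, 71.7% and 74.6% of a vehicle mean of 12.37 TPM, so that its UK5099 and combination means differed by less than their spread, and Bag3, a target of HSF1, was at 95%, 81.1% and 70.7%. On the median of ratios scaling the combination values of Hsph1 and Bag3 were 0.04 and -0.03 and did not pass the test.

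Both cytosolic Hsp90 genes were lower on the deposited scale. Hsp90aa1, the more inducible of them, was 203 to 205 TPM in vehicle, 139 to 153 under UK5099, 132 to 137 under Butyrate and 127 to 137 in the combination. The 3 treated groups were clear of vehicle, and the combination samples overlapped those under Butyrate. Its coefficients were -0.47, -0.60 and -0.62, or -0.32, -0.28 and -0.16 after median of ratios scaling. Hsp90ab1 had the highest level of the set per exonic length in vehicle, 3080 ± 34.1 TPM (SD, n = 3), followed by P4hb at 955 ± 14.9, Calr at 824 ± 4.16 and Hspa5 at 722 ± 7.65, which did not overlap within their SD. Its coefficients were -0.29, -0.28 and -0.57, and after median of ratios scaling -0.14, 0.04 and -0.10.

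The small heat shock proteins, which hold unfolded proteins without using ATP, differed from each other. Hspb1 (chr5:135916773-135918418) was 290.1, 292 and 277 TPM in vehicle, 426, 411 and 407 under UK5099, 324, 325 and 329 under Butyrate and 618, 566 and 573 in the combination. The 4 groups were separate, in the combination at 204% of the vehicle mean. The coefficients were 0.53 ± 0.034, 0.19 ± 0.034 and 1.03 ± 0.034 (limma adjusted p = 1.73e-06, 0.00114 and 4.54e-09), and 0.68, 0.50 and 1.49 after median of ratios scaling. Hspb8, the partner of Bag3, was 18.6, 18.6 and 18.2 TPM in vehicle, 10.3, 11.1 and 11.1 under UK5099, 12.9, 13.1 and 14.2 under Butyrate and 13.9, 13.99 and 14.8 in the combination. It was lowest under UK5099 alone, and the combination samples overlapped those under Butyrate. Its coefficients were -0.72, -0.43 and -0.35 as deposited, but after median of ratios scaling -0.57, -0.14 and 0.08, of which the last 2 did not pass the test. Cryab stayed between 0.256 and 0.851 TPM and passed the test in no comparison, with a coefficient of variation of up to 35.1%. Its combination samples (0.256 to 0.360) lay below those of vehicle (0.483 to 0.851), at 46.1% of the vehicle mean. With 15 to 31 fragments per sample and the added 1, the size of its change is uncertain.

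The mitochondrial chaperonin genes Hspd1 (Hsp60) and Hspe1 (Hsp10) share a promoter region and overlap at their starts. Hspd1 was 90.1 to 93.8 TPM in vehicle, 65.5 to 69.0 under UK5099, 73.2 to 74.4 under Butyrate and 58.3 to 65.1 in the combination, whereas Hspe1 was 59.2 to 60.6, 51.8 to 54.0, 58.6 to 59.0 and 53.1 to 58.3. Hspd1 was lower in all treated samples, with coefficients of -0.44, -0.31 and -0.56, and Hspe1 had -0.18, -0.03 and -0.09, of which the UK5099 value alone passed the test. After median of ratios scaling Hspd1 was at -0.29, 0 and -0.10 and Hspe1 at -0.03, 0.28 and 0.37. Hspd1 reads may be shared with copies elsewhere in the genome, as the processed pseudogene Hspd1-ps3 was listed at 347.0 ± 6.05 TPM in vehicle (SD, n = 3). Hsf1, the regulator of the heat shock genes, was 6.00 to 6.26 TPM in vehicle and at 90.5%, 76.7% and 74.3% of that mean after treatment, with coefficients of -0.12, -0.32 and -0.36 that were 0, -0.06 and 0.03 after median of ratios scaling.

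**Figure D3:**
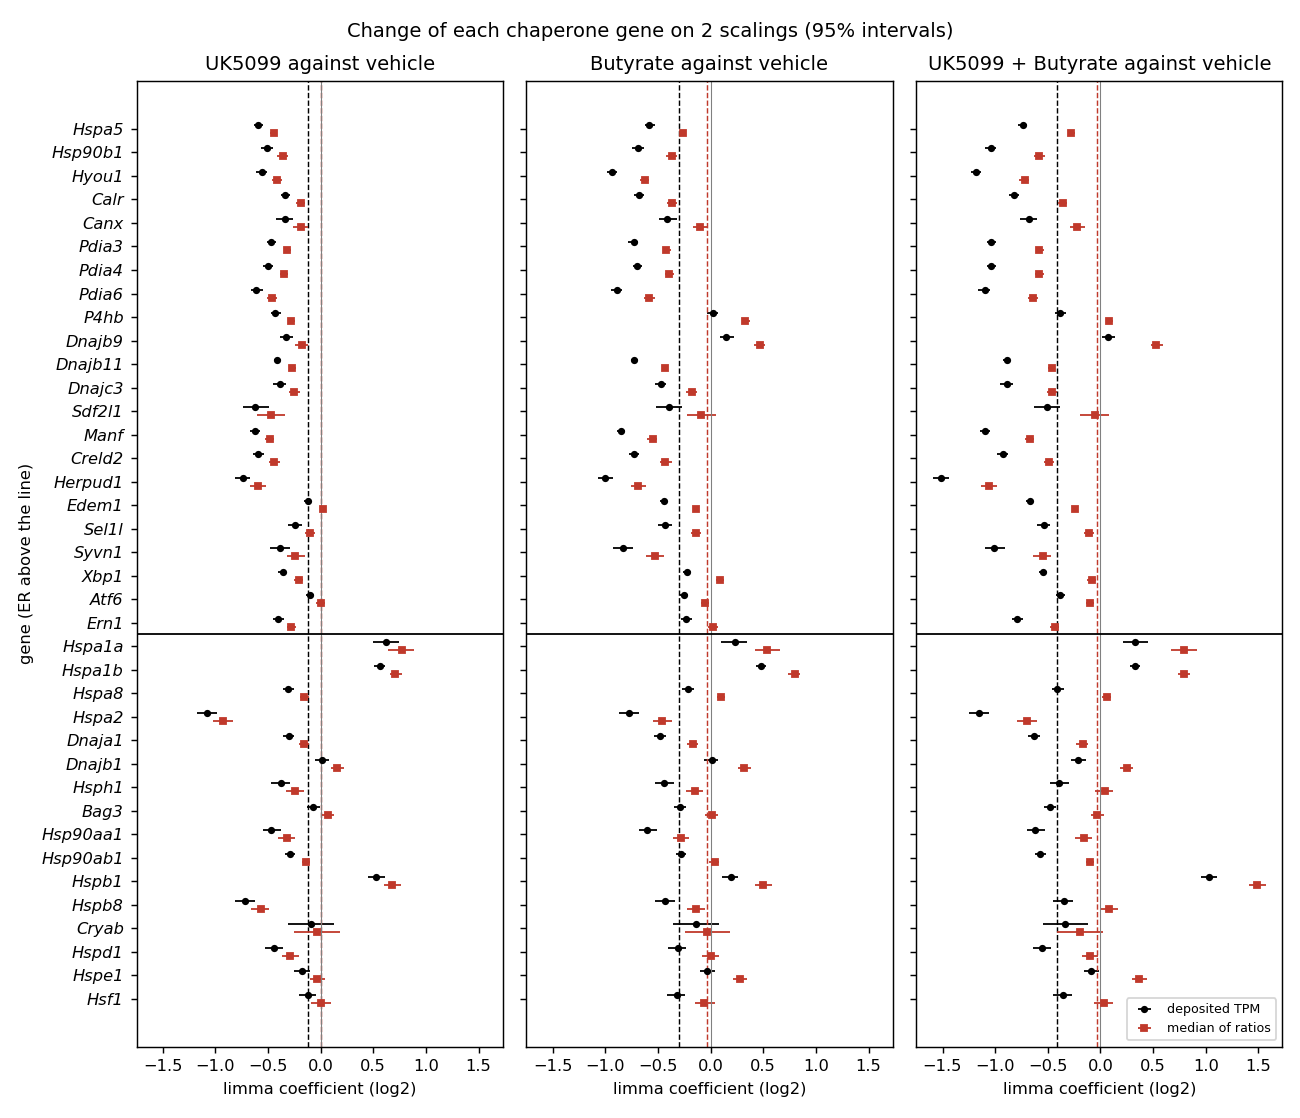
Limma coefficients with 95% intervals for the 38 genes against vehicle, as deposited (black circles) and after median of ratios scaling (red squares). Dashed lines mark the median of the 13345 genes that averaged 1 TPM or more on each scaling, and most ER genes lie to the left of the line of their own colour.

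In the promoter windows, the 10 ER genes with an exact match to ERSE or ERSE-II were compared with the 9 with neither (Pdia3, Pdia4, P4hb, Dnajb9, Sdf2l1, Edem1, Sel1l, Xbp1 and Ern1), as a description with no test. Inexact matches were not searched, so the 9 are not shown to lack such an element. The letters CCACG on their own lay in 17 of these 19 genes. The median coefficients of the 10 and the 9 were -0.46 and -0.40 under UK5099, -0.71 and -0.39 under Butyrate and -0.91 and -0.55 in the combination. After median of ratios scaling they were -0.32 and -0.28, -0.40 and -0.09, and -0.48 and -0.11. The ranges overlapped in each comparison. P4hb and Dnajb9, which did not fall under Butyrate, are both among the 9, and so is Pdia3, whose Butyrate coefficient was -0.73.

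The combination was the comparison in which most members passed both thresholds. The 9 lower genes were Hsp90b1, Hyou1, Pdia3, Pdia4, Pdia6, Manf, Herpud1, Syvn1 and Hspa2, and Hspb1 was higher, where 4.63% and 1.79% of all genes were lower and higher by that rule. Among genes of 1 TPM or more these shares were 8.15% and 2.99%. With Butyrate alone no member passed both, against 2.42% lower and 1.13% higher among all genes, although 34 passed the adjusted p in limma, and Herpud1 lay at the limit. Most of the 9 rest on the scaling, since their coefficients lay close to -1. After median of ratios scaling Herpud1 (-1.06) and Hspb1 (1.49) were past both thresholds, and the other 8 had -0.55 to -0.72, all lower in the same test. Syvn1, at -1.01, was at -0.98 without vehicle replicate 1 or without combination replicate 1, and Hspb1 was at 0.99 without combination replicate 1.

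The interaction term of the fit asked whether UK5099 acted differently when Butyrate was present. For 18 of the 22 ER genes the combination lay above the sum of the single effects, and for 12 of them the difference passed the test as deposited, 9 of which passed on all 4 scalings. Of the 38 members, 17 had a positive interaction and 5 a negative one, against 7.01% and 6.38% of all genes, and none passed both thresholds, against 1.01%. Among genes of 1 TPM or more these shares were 9.67%, 10.4% and 1.72%. The median over members was 0.16 as deposited, 0.15 after median of ratios scaling and 0.08 with nuclear protein-coding genes rescaled, which left 13 positive and 6 negative. On that last scaling Pdia3 and Pdia4 (both 0.08), Herpud1 (0.15) and Hspb1 (0.23) no longer passed (limma adjusted p = 0.0257, 0.0371, 0.0606 and 0.0107), and 3 members near 0 (Canx, P4hb and Xbp1) changed sign on some scaling. For Hspa5 UK5099 gave -0.59 without Butyrate and -0.17 with it (interaction 0.43 ± 0.026, limma adjusted p = 5.76e-06), and -0.44 and -0.02 after median of ratios scaling. Hspb8 showed the largest positive value, as UK5099 gave -0.72 alone and 0.08 with Butyrate (0.80 ± 0.058, limma adjusted p = 1.67e-05), or -0.57 and 0.22 after median of ratios scaling. Hspa2 was next, with -1.08 and -0.38 (0.69 ± 0.059).

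The inducible Hsp70 genes had the most negative interactions. UK5099 raised Hspa1b by 0.56 alone, but with Butyrate present its coefficient was -0.15 (interaction -0.71 ± 0.032, limma adjusted p = 9.28e-07), and after median of ratios scaling it was 0.71 alone and 0 with Butyrate. Hspa1a gave 0.62 and 0.10 (-0.52 ± 0.077), and Dnajb1 0.01 and -0.22 (-0.23 ± 0.042). Hspb1 went the other way, as UK5099 gave 0.53 alone and 0.84 with Butyrate (0.31 ± 0.049, limma adjusted p = 0.00172), so that its rise with both drugs exceeded the sum as deposited, a call that was lost with nuclear protein-coding genes rescaled. Ern1 and Edem1 were the ER genes that fell by more than the sum (-0.15 ± 0.031 and -0.11 ± 0.021). P4hb had an interaction of 0.03 (95% interval -0.04 to 0.09), as UK5099 gave -0.43 without and -0.40 with Butyrate.

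**Figure D4:**
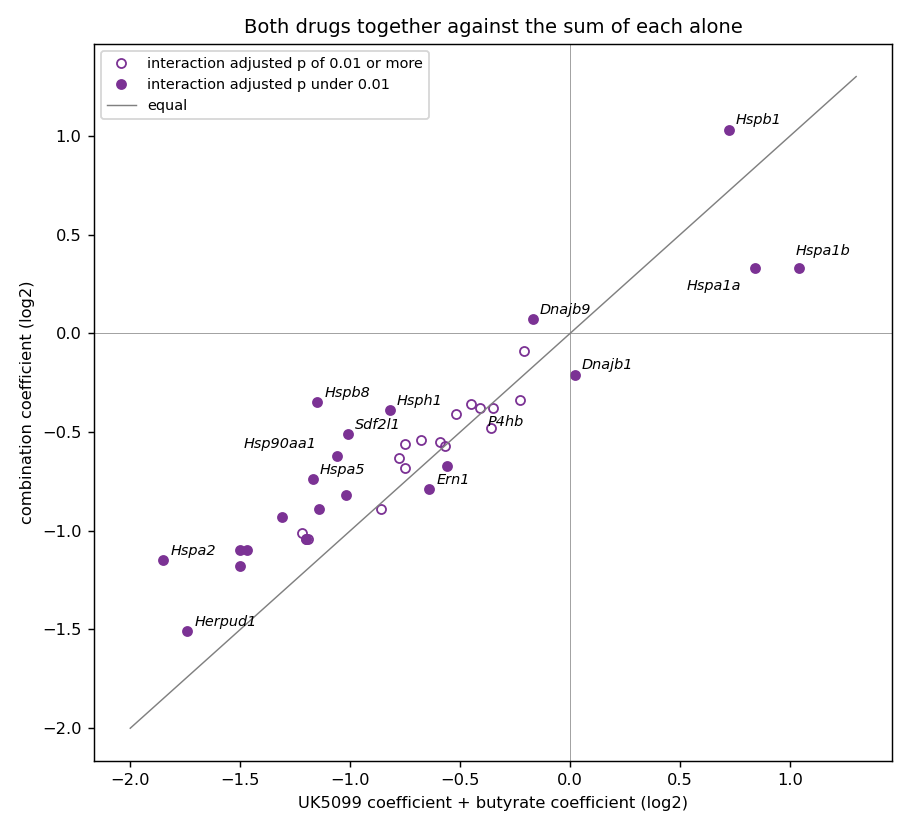
Each point is a gene, with the sum of its UK5099 and Butyrate coefficients on the horizontal axis and its combination coefficient on the vertical axis, both as log2 of deposited TPM. Filled points have an interaction with limma adjusted p under 0.01, and most of them lie between the line of equality and 0, with Hspb1, Ern1 and Edem1 on the far side of the line.

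The drugs were also compared with each other. Butyrate minus UK5099 was positive in 8 members and negative in 19, against 9.97% and 27.5% of all genes, and after median of ratios scaling positive in 13 and negative in 9, against 16.1% and 17.8%. Among genes of 1 TPM or more these shares were 11.8% and 45.6% as deposited, and 21.1% and 29.2% after that scaling. The negative members were 50% and 23.7% of the 38, near or below the shares of such genes. Dnajb9 (0.48 ± 0.029), P4hb (0.45 ± 0.020), Hspa2 (0.30 ± 0.042), Hspb8 (0.28 ± 0.041), Sdf2l1 (0.22 ± 0.054), Ern1 (0.17 ± 0.022), Hspe1 (0.15 ± 0.033) and Xbp1 (0.14 ± 0.015) were higher with Butyrate than with UK5099, and these 8 were higher on all 4 scalings. Syvn1 (-0.45 ± 0.042), Hspa1a (-0.39 ± 0.055), Hyou1 (-0.37 ± 0.022), Hspb1 (-0.35 ± 0.034), Calr (-0.34 ± 0.021), Dnajb11 (-0.32 ± 0.015) and Edem1 (-0.32 ± 0.015) were lower with Butyrate on all 4 scalings. Hspa5 differed by 0.02 between the drugs as deposited (95% interval -0.02 to 0.06), but was 0.18 higher with Butyrate after median of ratios scaling. For 13 members the sign of this difference changed with the scaling, Hsp90b1, Canx, Pdia4 and Creld2 among them.

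The further ER folding and degradation genes listed here had medians nearer to 0 than the 22 ER members. Among all genes of 1 TPM or more, 38.1% were lower under UK5099, 57.6% under Butyrate and 64.2% in the combination. After median of ratios scaling these shares were 20.1%, 32.2% and 34.7%. Of 43 further ER folding and degradation genes, 34 were lower and 0 higher under UK5099, 35 and 1 under Butyrate and 36 and 1 in the combination, with median coefficients of -0.38, -0.38 and -0.56. After median of ratios scaling the counts were 23 lower and 1 higher, 19 and 5, and 25 and 6, with medians of -0.23, -0.09 and -0.17. The 3 past both thresholds, all in the combination, were Hspa13, an Hsp70-like ATPase of the ER (-1.30), Dnajc10, a disulfide reductase with a J domain (-1.18), and Mbtps1, the protease that cuts ATF6 (-1.07). None of these 3 after median of ratios scaling passed both thresholds (-0.88, -0.75 and -0.64), and Ero1a, the oxidase that recharges the disulfide isomerases, did so as higher (1.01), a gene named after its value was seen. Of 51 further cytosolic and mitochondrial folding genes, 33 were lower and 4 higher under UK5099, 45 and 1 under Butyrate and 47 and 3 in the combination, with medians of -0.18, -0.39 and -0.44. As deposited, these medians lay nearer to 0 than those of the members outside the ER under UK5099. They lay farther from 0 under Butyrate and in the combination. After median of ratios scaling the counts were 12 and 8, 26 and 10, and 22 and 12, with medians of -0.04, -0.11 and -0.02. Those past both thresholds were Fkbp5, a cochaperone of Hsp90 that is induced by steroid hormones (-1.36 in the combination), the J protein Dnajb5 (-1.08 under Butyrate and -1.19 in the combination) and the chaperonin subunit Cct6a (-1.04 in the combination), and none did after median of ratios scaling.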

How the data were processed

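RNA was sequenced from 12 organoid samples in 4 groups of 3, grouped by their labels. The authors deposited TPM per gene for 24674 genes. In 100% of rows the length column equalled the distance from start to stop, so the deposited TPM is divided by genomic span. The submitters' processing notes name STAR 2.7.9a, Partek and GRCm39, whereas the study's methods name STAR with RSEM on GRCm38, and which of these made the table could not be settled. Table coordinates were not combined with the GRCm38.p6 promoter windows. Depth was recovered from the smallest steps of the low values, of which 77.1% to 78.6% were whole fragments within 0.02.

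The fit was limma 3.58.1 in R 4.3.3 on log2(TPM + 1), with a term for each drug and a term for their interaction, moderated by empirical Bayes and adjusted after Benjamini-Hochberg over all genes. The thresholds were an adjusted p of 0.01 and a coefficient of 1, as in the study. The members and the gene lists were chosen with earlier results of these data known. All 38 members are named, and of the other lists those past both thresholds. Levels between genes were compared on TPM recomputed with the exonic lengths of GENCODE, found for 38 of 38 members. On simulated fragments for 24674 genes, the fit recovered 172 of 200 genes changed by UK5099 with 1 false call and 174 of 200 changed by Butyrate with 0. Calls there used both thresholds, and the planted changes were larger than any member coefficient. These rates do not describe smaller changes called on the adjusted p alone. Alternatives were 3 other scalings (median of ratios, nuclear protein-coding genes rescaled, fragments to a common total), a pseudocount of 0.1, a filter at 1 TPM, a replicate block, each of the 12 samples left out and, chosen after seeing the data, the 2 libraries that stand apart left out. Further tools were Python 3.11.15, numpy 2.4.6, pandas 2.3.3 and matplotlib 3.10.9.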

Additional observations from a re-analysis of the deposited data

Results flagged for a closer look

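For 22 of the 38 genes the effect of UK5099 differed between cultures with and without Butyrate by limma's interaction term (adjusted p under 0.01). By that rule 7.01% of all genes had a positive and 6.38% a negative interaction. Among genes of 1 TPM or more these shares were 9.67% and 10.4%. Among the ER genes the interaction coefficients were 0.43 for Hspa5, 0.32 for Hyou1, 0.20 for Calr, 0.16 for Pdia3, 0.16 for Pdia4, 0.40 for Pdia6, 0.25 for Dnajb9, 0.24 for Dnajb11, 0.50 for Sdf2l1, 0.38 for Manf, 0.39 for Creld2 and 0.23 for Herpud1. They were -0.11 for Edem1 and -0.15 for Ern1. In the cytosol they were -0.52 for Hspa1a, -0.71 for Hspa1b, -0.23 for Dnajb1, 0.69 for Hspa2, 0.43 for Hsph1, 0.44 for Hsp90aa1, 0.31 for Hspb1 and 0.80 for Hspb8. Of the 38 genes, 13 had a positive and 5 a negative interaction past the adjusted p on all 4 scalings, a count that was not made for all genes. Pdia3, Pdia4, Herpud1 and Hspb1 lost the call with nuclear protein-coding genes rescaled. Groups of 3 samples are too small for a test of outlying samples.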

How the results depend on the processing

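The counts rested mainly on the scaling. Members past both thresholds were 0 with UK5099 after median of ratios scaling, against 1, and 2 with the combination after median of ratios scaling, 6 with nuclear protein-coding genes rescaled and 2 on the scale of fragments, against 10. With Butyrate the count was 1 at a pseudocount of 0.1, against 0. With Butyrate, members higher at any size were 9 after median of ratios scaling, 9 on the scale of fragments and 6 with protein-coding genes rescaled, against 4, and those lower were 19 after median of ratios scaling, against 30. With the combination, members higher were 7 and 6 on the first 2 of these scalings, against 3. The cause was not tested. Leaving out each sample gave 1 to 1 members past both thresholds under UK5099, 0 to 1 under Butyrate and 8 to 10 in the combination. At any size it gave 31 to 32 lower and 3 to 3 higher with UK5099, 30 to 30 and 3 to 4 with Butyrate, 32 to 33 and 3 to 3 with the combination, and 25 to 29 between the drugs. The interaction count past both thresholds stayed at 0. With a replicate block the counts past both thresholds were 1, 0 and 10, and 29 members differed between the drugs, against 27. For single genes, 183 values kept their side of both thresholds and 26 moved inside them with the same sign. Same-numbered samples did not deviate together, with r from -0.107 to 0.0294 over 18 pairs. With 3 samples a group this cannot show whether same-numbered cultures were set up together, and the labels do not say. TPM by genomic span, bulk cultures and 3 samples a group limit these values. Low genes such as Cryab and Atf6 have understated coefficients, and near-identical copies share reads.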
